A study of Saccharomyces cerevisiae with 6 samples.

Results

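RNA was compared between budding yeast strains whose RNA polymerase II carries either the fast RPB1 allele G1097D or the slow allele H1085Y, with no reference to WT. The 2 libraries of each mutant, 4 of the 6 in the series, were set against each other over the 309 nuclear genes of the read-class tables (of 312 genes in all, the other 3 being mitochondrial) and over the nuclear splice junctions. All strains, WT included, carry a deletion of UPF1, whose product acts in nonsense-mediated decay, and lack chromosomal RPB1, which is supplied in its WT or mutant form on a LEU2 plasmid. Each mutant is a single strain, grown to log phase in rich medium (YPDA), and the 2 libraries of a strain are biological replicates from total RNA depleted of rRNA. The 309 genes hold 50 genes of large-subunit (RPL) and 36 of small-subunit (RPS) ribosomal proteins, together the RP genes. Of the rest, 178 are other spliced (non-RP) genes and 45 are genes, mostly of Ty retrotransposons, whose coding gap is a programmed frameshift and not an intron.

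RNA polymerase II transcribes an intron while the spliceosome assembles on it: U1 snRNP binds the 5′ splice site (5′SS), the branch point sequence is recognised next, and the 3′ splice site (3′SS) is cut last. The speed of the polymerase sets how long an early site is exposed before a later, competing site is made. Most yeast introns are single, short and near the 5′ end of the gene, and RP genes, which are transcribed very heavily, account for most of the spliced RNA in the cell. Several RP genes regulate themselves through their introns: excess ribosomal protein blocks splicing of RPS14B, RPL30, RPL22B and the RPS9 transcripts.

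The read-class tables held 11033195 and 10916824 reads for fast and 7682741 and 10333540 for slow, while unique split reads across junctions numbered 6863818 and 6666947 against 4127729 and 5517128. The strains also differed outside the spliced nuclear genes. Reads of the 3 mitochondrial genes numbered 105907 and 137816 in fast but only 501 and 705 in slow (118737 and 140491 in WT). For the frameshift genes the order was the opposite, with 98233 and 112072 reads in fast against 303298 and 438834 in slow. Whether either difference bears on the results was not tested. The 2 deposited counters of spliced reads did not scale alike: the junction tables held 2.93 and 2.94 annotated nuclear junction reads for each junction read of the DICEseq tables in fast, but 2.25 and 2.28 in slow, with WT at 2.34 and 2.40.

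Results on splicing turn on a few introns, whose 5′SS are shown because they differ in sequence. In each line the last 4 exon bases precede the first 10 intron bases, with the first 6 intron bases in capitals, 5′ to 3′ (R64, RefSeq assembly).
RPS14A 5′SS: tctaGTATGTttaa
RPS9A 5′SS: ccaaGTACGTcgtt
COX5B 5′SS: aagaGCATGTataa
RPL22B 5′SS: aaacGTACGTtaat
MAY24 5′SS: tgagGTATGTtatt
HNT1 5′SS: aaaaGTATGTcaca
Among the 267 annotated nuclear introns, read on the transcribed strand, 76.0% begin with the consensus GTATGT and 82.4% hold the branch point sequence TACTAAC. RPS14A, MAY24 and HNT1 begin with the consensus, while RPS9A and RPL22B have GTACGT and COX5B has GCATGT. Of the 6 introns only those of RPS9A and MAY24 lack an exact match to the branch point sequence. The introns lie at chrIII:177907-178213 (RPS14A, 307 nt), chrXVI:404957-405457 (RPS9A, 501 nt), chrIX:155223-155310 (COX5B, 88 nt), chrVI:64600-64920 (RPL22B, 321 nt), chrXVI:833694-833827 (MAY24, 134 nt) and chrIV:239399-239509 (HNT1, 111 nt). The intron interrupts the coding sequence after 1 nt in COX5B, 5 nt in MAY24, 7 nt in RPS9A and RPS14A, 12 nt in RPL22B and 97 nt in HNT1.

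The first question was how much unspliced RNA each gene carried. The pre-mRNA fraction is the share of exon–intron boundary and intron reads among these plus exon–exon junction reads, all from the DICEseq tables. With this measure the ratio of pre-mRNA to mRNA was higher in fast for 27 of the 250 genes tested (10.8%) and lower for 2 (0.8%) by edgeR's quasi-likelihood test at an adjusted p under 0.05. The 27 were 22 RP genes (10 of 50 RPL and 12 of 36 RPS) and 5 of 153 non-RP genes, and both lower genes were non-RP. The 250 genes also hold 9 frameshift and 2 mitochondrial genes, of which none was called, so 248 are nuclear. The median log2 change was 0.31 over RPL, 0.34 over RPS and 0.10 over non-RP genes, against 0.21 over all genes tested. Median fractions over RP genes were 13.05% and 15.4% in fast, 9.64% and 10.8% in slow, and 11.3% and 11.5% in WT. Over non-RP genes they were 17.9% and 18.6% in fast and 17.9% and 20.7% in slow, so there the libraries of the mutants overlapped. The count depends on the spread shared with WT and on single libraries. With the 4 mutant libraries alone 9 genes were called, all higher in fast (RPS9A, COX5B, RPS14A, RPS17B, RPL36B, RPS13, RPS6B, RPL6A and RPL28), and without slow replicate 1 only RPS9A and RPS13 were. Leaving out fast replicate 2 gave 16 calls, and leaving out either WT library gave 9.

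**Figure D1:**
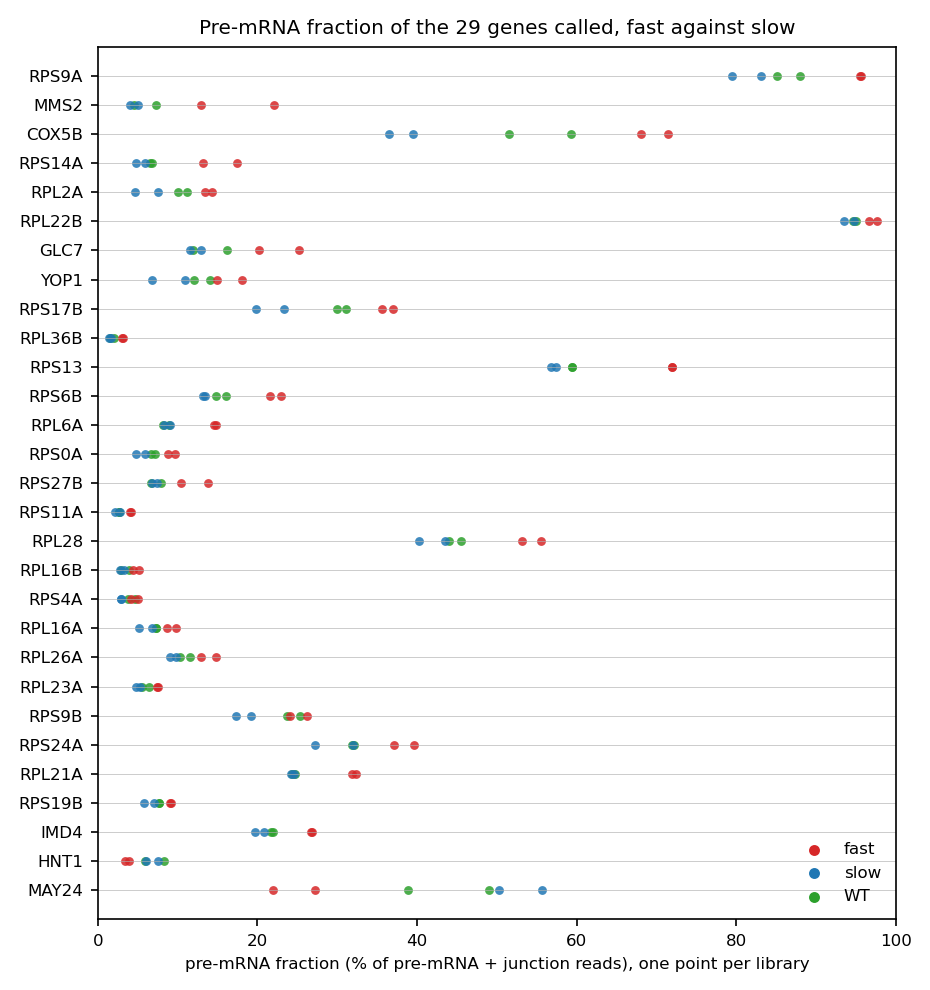
Pre-mRNA fraction in percent (x axis) of each of the 29 genes called between fast and slow (y axis, ordered by log2 change, largest at the top), 1 point per library, fast in red, slow in blue and WT in green. The fast points lie right of the slow points in 27 genes and left of them in MAY24 and HNT1. Fractions use DICEseq junction reads as mRNA.

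RPS9A, for a small-subunit protein, had pre-mRNA fractions of 95.6% in both fast libraries and 79.5% and 83.1% in slow, with 85.1% and 87.9% in WT. These rest on DICEseq junction reads, far fewer in fast than the 3409 and 3558 reads of the other counter. The absolute level of the fraction thus depends on the counter. RPS14A, the more highly expressed RPS14 copy, had 13.1% and 17.5% in fast against 4.77% and 5.85% in slow. COX5B, for a subunit of cytochrome c oxidase used at low oxygen, had 68.1% and 71.4% against 39.4% and 36.5%. In all 3 genes the strains did not overlap. Both fast libraries lay above both slow ones in 96 of the 250 genes tested, so non-overlap alone does not set these 3 apart. Their log2 changes, in the order given, were 2.31 ± 0.22 (SE, adjusted p = 0.00117), 1.68 ± 0.18 (0.00170) and 1.92 ± 0.35 (0.0144). RPL22B had 96.7% and 97.7% in fast against 93.4% and 94.8% in slow, a log2 change of 1.10 ± 0.21 (adjusted p = 0.0147). RPS13 had 71.9% in both fast libraries and 56.8% and 57.3% in slow (0.95 ± 0.11, adjusted p = 0.00170), and RPL28 53.1% and 55.5% against 40.3% and 43.5% (0.72 ± 0.11, adjusted p = 0.00641). RPS13, RPL28, ACT1, RPL39, ECM33 and COF1 were listed here as followed by RT-qPCR in the study. Its text names RPL39, RPL28 and ACT1. The study reports by RT-qPCR, for several transcripts, a ratio above WT in fast and below WT in slow. Of the 6 listed genes RPS13 and RPL28 passed the test here, though not with the other kinds of mRNA read given below. The other 4 did not pass, with log2 changes from 0.04 in ACT1 to 0.68 in COF1.

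The 2 lower genes ran the opposite way. MAY24, a gene of little-known function, had fractions of 27.2% and 22.0% in fast against 50.2% and 55.7% in slow (log2 change −1.79 ± 0.46, adjusted p = 0.0466). HNT1, for an adenosine 5′-monophosphoramidase, had 3.38% and 3.85% against 7.60% and 6.02% (−0.96 ± 0.22, adjusted p = 0.03). Neither gene's libraries overlapped between the mutants. Both fast libraries lay below both slow ones in 45 of the 250 genes tested, so non-overlap alone does not set MAY24 and HNT1 apart. MAY24 kept its call in 2 of the first 12 alternatives, and HNT1 in 6. The WT mean lay between the mutant means in 26 of the 27 higher genes (RPL6A being the exception) and in MAY24, and above both in HNT1.

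Separating the ratio into its parts showed unlike patterns. Of the 29 genes called, 19 had more pre-mRNA reads in fast, of which 14 had no called change in junction reads and 5 had more of these as well. RPS14A was the largest, with 9524 and 10289 CPM of pre-mRNA (read counts scaled to library size by TMM) in fast against 2946 and 3027 in slow (log2 change 1.73 ± 0.11). Another 5 genes, RPS9A, MMS2, COX5B, GLC7 and RPL22B, had fewer junction reads in fast and no called change in pre-mRNA reads. RPS9A had 105 and 109 CPM of junction reads in fast against 439 and 392 in slow. MAY24 had fewer pre-mRNA reads in fast, and HNT1 had fewer pre-mRNA and more junction reads. The remaining 3 genes were called for neither part. Each part was scaled by TMM on its own, so their changes do not add up to that of the ratio. In RPS13 the log2 change was 0.95 for the ratio, 0.84 for pre-mRNA reads and 0.15 for junction reads. The junction calls are those of DICEseq reads, and the calls of both parts depend on the scaling, as given below.

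Since the 2 counters differed between the strains, the ratio was recomputed with other reads as mRNA, an alternative chosen after the data were seen. With the unique annotated junction reads of STAR, 4 genes were higher in fast (RPS14A, RPS9A, COX5B and RPL22B) and 12 lower, among 237 tested. With DICEseq exon 2 reads 2 were higher (RPS14A and RPS9A) and 3 lower, among 265. The median change of the 86 RP genes, 0.34 on DICEseq junction reads, was −0.05 and −0.09 on these measures, and that of non-RP genes −0.17 and −0.10 in place of 0.10. Of the 3 measures the RP median was thus above 0 with DICEseq junction reads only, and of the 22 RP genes called there 3 were called with STAR reads and 2 with exon 2 reads. RPS14A, RPS9A and MAY24 were called with all 3 measures in 1 direction, with log2 changes of 1.29 to 1.68, 1.10 to 2.31 and −1.96 to −1.79. HNT1 was lower in fast on both junction counts (−0.96 and −0.94) and at −0.80 with exon 2 reads (adjusted p = 0.122).

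**Figure D2:**
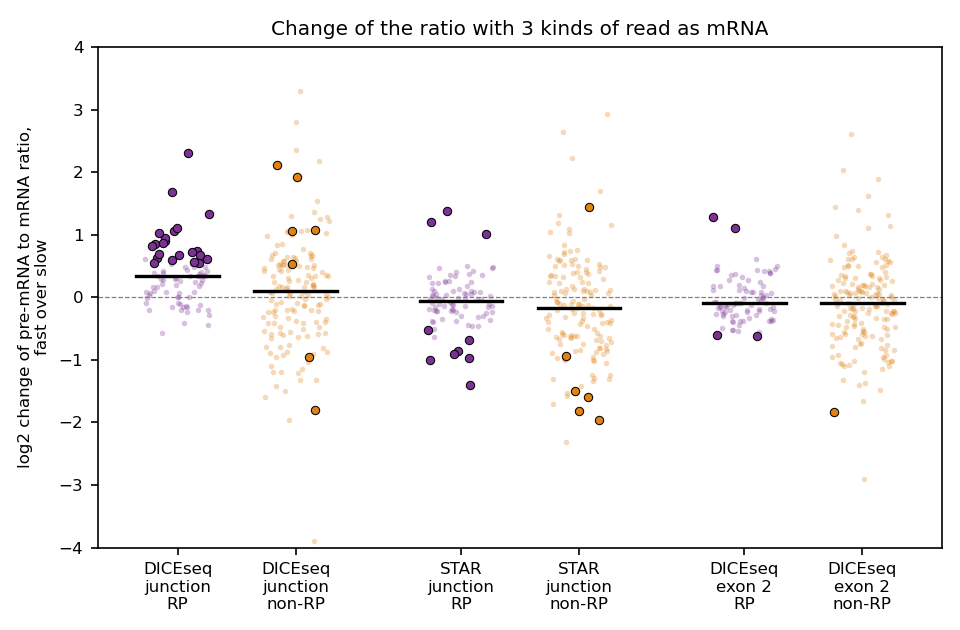
Log2 change, fast over slow, of pre-mRNA over mRNA reads (y axis) for RP (purple) and non-RP (orange) genes with DICEseq junction, STAR junction or DICEseq exon 2 reads as mRNA (x axis). Each point is a gene, outlined points passed the test, black lines are medians, and 5 points beyond ±4 are not drawn. The RP median is 0.34 on the first measure and −0.05 and −0.09 on the others.

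RPS9A and MMS2 show the gap between the counters. MMS2, for a ubiquitin-conjugating enzyme variant of DNA repair, had 216 and 384 DICEseq junction reads in fast against 980 and 1230 in slow, but 1385 and 1781 against 2053 and 2579 unique STAR reads over the same intron. Its log2 change was 2.12 ± 0.52 on the first count and 0.74 ± 0.38 on the second (adjusted p = 0.273). RPS9A had 212 and 219 against 839 and 975 DICEseq reads and 3409 and 3558 against 6287 and 7421 STAR reads, and passed the test on both. Its pre-mRNA fractions given above would be lower in both mutants with STAR reads as mRNA. The log2 number of STAR reads per DICEseq read was higher in fast by a median of 0.39 in the 127 tested genes with at most 30 coding nt before the intron, and by 0.11 in the 111 genes with more. The part of exon length in the gap was not tested further.

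On STAR reads, 7 RP genes had a lower ratio in fast, and none of these was called on DICEseq junction reads. RPL40A, which makes a ubiquitin fused to a ribosomal protein, had a log2 change of −0.98 ± 0.12 (adjusted p = 0.00113) and RPL25 one of −0.67 ± 0.12 (0.00665). Both were also called with exon 2 reads, at −0.61 and −0.60. Their values on DICEseq junction reads were 0.29 and −0.15 and did not pass.

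The 5′SS of the called genes were compared with those of the others as a description. Of the 22 RP genes higher on DICEseq junction reads 63.6% had GTATGT, against 76.6% of the 64 others, and 90.9% against 96.9% held TACTAAC. Intron length was alike, with medians of 414 and 404 nt. GTACGT is found in 14 of the 86 RP genes, and 7 of these were called, against 14 of the 63 with GTATGT. Over all 86 RP genes 22 were called, and over all genes 10.8% were higher. Median log2 changes of the RP genes with GTACGT and with GTATGT were 0.54 and 0.31. On STAR reads the medians were 0.05 and −0.03, with 2 GTACGT genes higher and 1 lower, and 1 GTATGT gene higher and 3 lower. Outside RP genes, 0 of 7 genes with GTACGT were called on DICEseq junction reads, with a median of 0.01. Of 120 non-RP genes with GTATGT 4 were higher and 2 lower, with a median of 0.15.

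The levels of spliced and of unspliced RNA were then compared each on its own. Junction reads of the DICEseq tables, scaled by TMM, were higher in fast for 52 of 265 genes (19.6%) and lower for 38 (14.3%), or 34.0% in either direction, 2 of the 52 being mitochondrial. Without slow replicate 2 the calls fell from 90 to 46. RP genes made up 38 of the higher and 5 of the lower genes, non-RP genes 12 and 22, and frameshift genes 0 and 11. Pre-mRNA reads were higher for 43 of 259 genes (16.6%), 3 of them mitochondrial, and lower for 28 (10.8%), with 34 and 3 RP genes and 6 and 25 non-RP genes. Scaling by all reads of each library left 18 higher and 19 lower for junction reads, 11 and 1 of them RP. For pre-mRNA it gave 40 higher and 7 lower, so the share of higher calls went from 60.6% to 85.1% and the median over all genes from −0.04 to 0.25. STAR junction reads gave 50 higher and 49 lower. Among 232 genes tested on both counters 50 were called on both, 27 higher and 22 lower on each, and RPL34B in opposite directions.

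DBP2, for an RNA helicase that controls its own level through its intron, had 1122 and 1187 CPM of junction reads in fast against 460 and 522 in slow (log2 change 1.23 ± 0.17, adjusted p = 3.64e-11). TEF4, a translation elongation factor whose intron holds a snoRNA, had 23447 and 21979 against 13385 and 13773 (0.74 ± 0.08). YCL002C (1.18 ± 0.36), RPS14B (0.78 ± 0.14) and RPS22B (0.77 ± 0.10) completed the 5 largest increases among the nuclear genes called. In the opposite direction REC114, of meiotic recombination, had a log2 change of −3.23 ± 0.98 with 2.97 and 2.98 CPM in fast, RPS9A one of −1.96 ± 0.24, and the 3 frameshift genes YGR038C-B, YNL284C-B and YGR161C-D ones of −5.02, −2.19 and −1.98. All but the frameshift genes, which have no STAR value here, were called in the same direction on STAR reads, DBP2 at 0.81 and RPS9A at −1.27. REC114 had 33.5 and 23.3 CPM in slow, and neither it nor DBP2 overlapped between the mutants.

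Among the nuclear genes called, the largest changes of pre-mRNA reads were those of RPS14A, REC102 (1.31 ± 0.45), MRK1 (1.14 ± 0.18), TEF4 (0.92 ± 0.11) and RPL36B (0.86 ± 0.18) upwards. REC102 acts in meiotic recombination and MRK1 is a kinase of the GSK-3 family. Intron reads of TEF4 can include those of its snoRNA. Lower in fast were CMC2 (−1.96 ± 0.59), ARP9 (−1.93 ± 0.50), MAY24 (−1.67 ± 0.31), GIM4 (−1.66 ± 0.29) and VPS29 (−1.57 ± 0.51). ARP9 is a subunit of chromatin remodellers, GIM4 a prefoldin subunit that helps fold tubulin, and VPS29 part of the retromer. GIM4 pre-mRNA stood at 345 and 351 CPM in fast and 878 and 1318 in slow, with no overlap, while its junction reads were not called.

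Groups of genes were read against the shares over all genes given above. Level calls in the groups use TMM, and scaling by all reads left fewer lower calls for both junction and pre-mRNA reads. Which members keep their call with that scaling is not given here. Of 6 snoRNA host genes measured, 5 had more junction reads in fast (RPS22B, TEF4, NOG2, ASC1 and IMD4), with a list median of 0.56 against −0.04 over all genes, and 4 had more pre-mRNA reads. Pre-mRNA reads include all intron reads, so in these hosts they and the ratio can hold reads of the snoRNA itself, which was not tested. With STAR reads TEF4 (0.33) and RPS22B (0.33) were still called, while NOG2 (0.21), ASC1 (0.12) and IMD4 (0.03) were not. The list for autoregulated splicing holds 9 genes, with RPS14A counted beside the regulated copy RPS14B. Of these 6 were higher (DBP2, RPS14B, RPL30, YRA1, RPS9B and RPS14A) and 2 lower (RPS9A and RPL22B) for junction reads. RPS9A and RPS9B were thus called in opposite directions. With STAR reads these calls were found again except that of YRA1 (−0.004, adjusted p = 0.976). Of 10 transcription and chromatin genes 5 had fewer pre-mRNA reads (ARP9, IWR1, GCR1, TAF14 and RPO26) and none more, and 2 of 7 tubulin and mitotic exit genes did so too (MOB1 and GIM5).

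Nuclear genes of mitochondrial proteins had 3 of 9 members lower in junction reads (CMC2, COX5B and MRPL44) and none higher, with a median of −0.17. Mitochondrial transcripts themselves were nearly absent from slow, as given above, and the part of this in the list was not tested. The actin list had 3 of 7 lower (ARP2 at −0.55, COF1 at −0.35 and ACT1 at −0.28), the ubiquitin list 3 of 9 (MMS2, UBC5 and UBC13), and the list of RNA processing and export 2 of 10 lower (TAN1 at −1.71 and POP8 at −0.87) and 3 higher, DBP2, YRA1 and NOG2, of which DBP2 alone was called with STAR reads. POP8 (−1.04) and CMC2 (−1.31) were also called lower with STAR reads. STAR results of the other lower members are not given here. Of 146 non-RP genes tested on both counters 19 were lower on both and 3 higher on both. For the ratio, these functional lists had at most 1 gene called each, apart from the autoregulated list with 4 of 9. All 4 were RP genes, and RPS14A, not itself the regulated copy, was among them. Vesicle traffic had 1 of 16 (YOP1), meiosis 0 of 10 and the translation list 0 of 4.

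Introns in 5′ leaders are not in the annotation used here and appear as junctions without an annotated end, so they were tested with the cryptic introns. RPS26A, for a small-subunit protein at the mRNA exit channel, had the largest increase among the leader introns called. Its leader junction (chrVII:148599-148966) had 36466 and 35601 reads in fast, 3710 and 4718 in slow, and 6693 and 5508 in WT. Scaled to the annotated junction reads of each library (as RPM) this was 5902 and 5931 against 972 and 922, or 6.25-fold higher in fast (log2 change 2.64 ± 0.06, adjusted p = 3.04e-05). RPS26B, the other copy, had 2462 and 2487 against 1790 and 1763 (0.48 ± 0.06, adjusted p = 0.0155). The splice sites of both copies follow, 5′SS as above and 3′SS as the last 16 intron bases, the last 3 in capitals, before 4 exon bases.
RPS26A 5′SS: agtaGTATGTtaac
RPS26B 5′SS: aaaaGTATGTtata
RPS26A 3′SS: atgaatatttaatTAGatca
RPS26B 3′SS: tgtatgtaattttTAGatgc
Both copies have the consensus hexamer and a TAG 3′SS, and TACTAAC lies with its branch A 55 nt from the intron end in RPS26A and 33 nt in RPS26B.

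Of 13 leader introns of RP genes with at least 1000 reads, counting the main junction per gene, 11 were higher in fast and none lower, and all 13 had both fast libraries above both slow ones. Of all 618 junctions tested 3.07% were called, 2.1% higher and 0.971% lower. Calls numbered 19 in all, and 8 without fast replicate 1 or 10 without fast replicate 2. RPL29 followed RPS26A, with 11041 and 11228 RPM against 4538 and 5021 (1.22 ± 0.06), and RPS29B, RPS8B, RPL24A, RPL24B, RPS8A, RPS22B, RPS25B, RPS26B and RPS25A lay between 0.86 and 0.41. RPS29A (0.39, adjusted p = 0.0682) and RPL32 (0.19, adjusted p = 0.314) did not pass. Of 9 such introns in non-RP genes 3 were lower in fast and none higher, and 7 had both fast libraries below both slow ones. Over all 68 leader introns tested, both fast libraries lay above both slow ones in 21 and below them in 21.

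URA2, for the first enzyme of pyrimidine synthesis, had the largest decrease among the leader introns called. Its main junction had 144 and 160 RPM in fast, 1438 and 1536 in slow, and 434 and 455 in WT, which is 9.80-fold lower in fast than in slow (log2 change −3.29 ± 0.10, adjusted p = 6.66e-05). A second URA2 junction with the same 5′SS and a 3′SS 20 nt further on changed likewise, from 178 and 125 in slow to 25.1 and 12.2 in fast (−3.02 ± 0.49, adjusted p = 0.0385). The sites of the pair are given as above.
URA2 5′SS: ttgaGTATGTtttt
URA2 main 3′SS: atattaacgacgaTAGaaat
URA2 second 3′SS: ccataactaattgCAGcata
BMH2, for a 14-3-3 protein, had 1064 and 1265 against 2060 and 2293 (−0.90 ± 0.12), and ARF2, a vesicle-coat GTPase, 1667 and 1684 against 2175 and 2343 (−0.43 ± 0.07). In all 3 genes the mutants did not overlap. The main URA2 intron was called in all 13 alternatives, BMH2 in 9, the second URA2 junction in 7 and ARF2 in 6, and with the 4 mutant libraries alone only the main URA2 intron of these was called. Of single libraries, leaving out fast replicate 1 or either WT library ended the calls of BMH2, ARF2 and the second URA2 junction, and leaving out fast replicate 2 or slow replicate 2 those of ARF2 and the second URA2 junction. RNA level and splicing of these introns cannot be told apart, since the tables hold no unspliced reads for these genes.

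**Figure D3:**
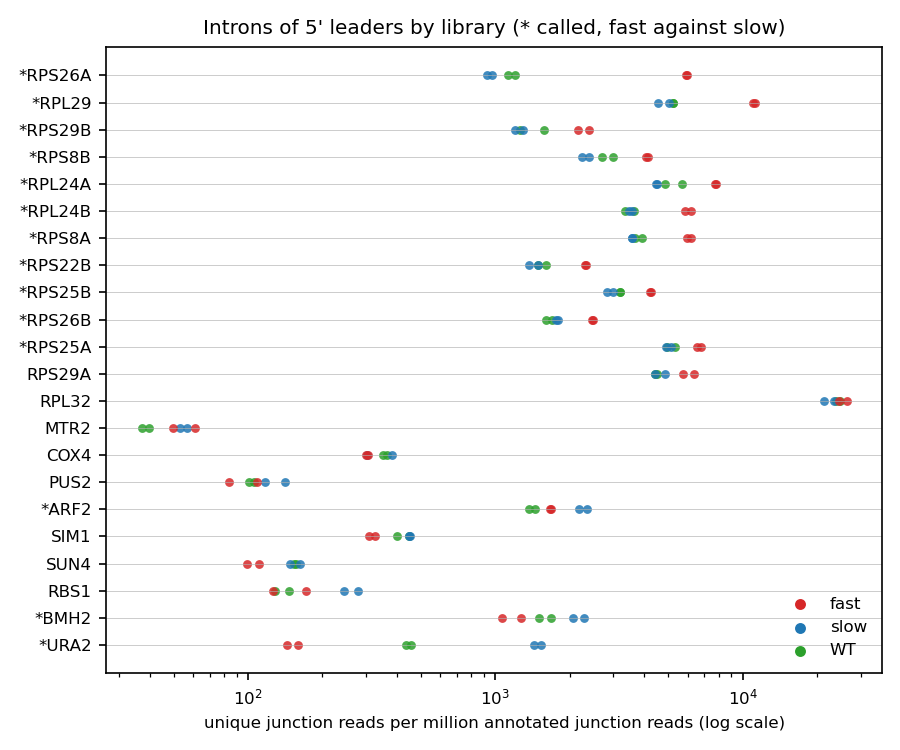
Unique junction reads in RPM of annotated nuclear junction reads (x axis, log scale) for the main leader intron of 22 genes (y axis, ordered by log2 change, asterisks mark calls), 1 point per library, fast in red, slow in blue and WT in green. RPS26A is at 5902 and 5931 in fast against 972 and 922 in slow, and URA2 at 144 and 160 against 1438 and 1536.

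Outside leaders, 3 junctions were called. An intron inside PEX4 (chrVII:756948-757152), a ubiquitin-conjugating enzyme of peroxisome import, had 119 and 115 reads in fast and none in slow or WT. Against the limit of 3 reads over both slow libraries it was at least 57.2-fold higher in fast (adjusted p = 0.05, and called in 5 of 13 alternatives). The PEX4 intron reached the minimum number of reads for testing through the fast libraries alone, so this fold is not independent of that filter. Its 5′SS and 3′SS are as follows.
PEX4 5′SS: acatGTATGTcgag
PEX4 3′SS: taatagaagtcccTAGttcc
The site begins with GTATGT, and TACTAAC was not found in the intron. The other 2 calls were junctions of 38542 and 108422 nt with ends in transposons and with 26 and 62 identical bases at their ends, both lower in fast. An intron of FES1, a nucleotide exchange factor of Hsp70, had 109 and 156 reads in fast and 269 and 347 in slow (−1.66 ± 0.31, adjusted p = 0.0682). PEX4 was the only call among 188 sense junctions in or near genes, and edgeR made none among 91 antisense ones.

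Paralog pairs of RP genes gave a comparison within each library that needs no scaling. For 46 pairs the share of copy A among the unique junction reads of both copies was taken, from annotated or leader introns. The shares did not overlap between fast and slow in 36 pairs (78.3%), copy A being higher in fast in 16 and lower in 20. With 2 libraries against 2 an exact permutation test cannot go below p = 0.333, so no pair was tested. The median absolute difference was 2.93 percentage points, beside a median range between replicates of 0.820 points in fast and 0.818 in slow.

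RPS26 stood apart, with RPS26A at 70.6% and 70.5% in fast, 35.2% and 34.4% in slow, and 41.6% and 41.3% in WT. RPL13A followed at 45.4% and 43.5% against 57.5% and 51.6%, RPL17A at 66.4% and 63.9% against 55.9% and 56.1%, and RPS21A at 47.7% and 46.9% against 39.2% and 37.9%. RPS9A fell from 7.63% and 7.70% in slow to 2.53% and 2.81% in fast. In RPS26, RPL17 and RPS21 the difference thus favoured copy A in fast, and in RPL13 and RPS9 copy B. At the other end RPL16A had 41.9% and 40.1% against 40.8% and 41.4%, with overlapping libraries, as in RPL24 and RPL43. Reads of near-identical copies that map to several places are not in these shares.

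**Figure D4:**
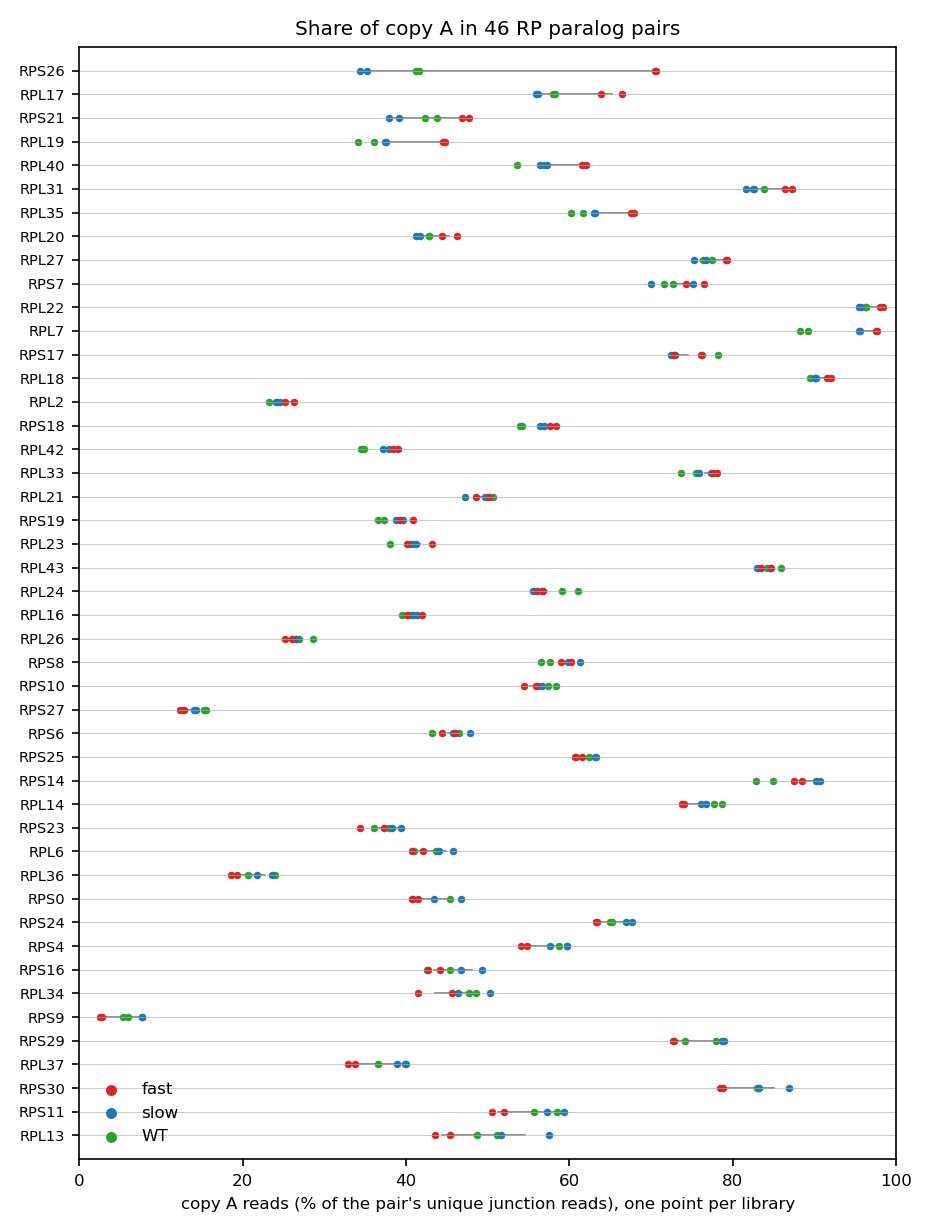
Share of copy A in the unique junction reads of each of 46 RP paralog pairs (x axis, percent; y axis ordered by the fast minus slow difference), 1 point per library, fast in red, slow in blue and WT in green, with a grey line between the fast and slow means. RPS26 is at the top with 70.6% and 70.5% in fast against 35.2% and 34.4% in slow.

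Splicing errors were measured as the splicing error frequency (SEF), the unique reads of an unannotated junction over those of the annotated junction with which it shares an end. Events use a 3′SS upstream (u3) or downstream (d3), or a 5′SS upstream (u5) or downstream (d5), of the annotated one. Of 289 events with at least 30 reads none was called between fast and slow by edgeR (0.0%), 17 had an unadjusted p under 0.05, and DESeq2 called 2, both higher in fast. With the reads of replicates added up, and their spread thus ignored, Fisher's exact test called 84 higher (29.1%) and 58 lower (20.1%). Replicates differed by more than 2-fold in 133 of the 289 events in fast and in 162 in slow.

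The 2 events of DESeq2 were an upstream 3′SS of RPS7A and one 3 nt downstream of the annotated 3′SS of SNR17A, the gene of the U3 snoRNA. The RPS7A site had 21 and 32 reads in fast and none in slow, with 4 and 11 in WT. The SNR17A site had 69 and 131 reads in fast and none in slow or WT. Against 3 reads over both slow libraries their SEF was at least 13.5-fold and 38.1-fold higher in fast (DESeq2 adjusted p = 0.0269 and 0.00565, edgeR adjusted p = 0.779 for both). An upstream 3′SS of RPL13B had 55 reads in each fast library, 8 and 3 in slow and none in WT (log2 change 2.65 ± 0.99, adjusted p = 0.866). These 3 were chosen after their values were seen, and SNR17A has a near-identical copy. Without their fast reads none of the 3 would have reached the minimum number of reads for testing. Their differences are thus not independent of that filter. The upstream and annotated 3′SS of the RP events are written as for RPS26A, so that used and normal sites can be compared.
RPS7A upstream 3′SS: gaatgtttcaatcTAGaaaa
RPS7A annotated 3′SS: tttccttcttttaTAGatcg
RPL13B upstream 3′SS: ctaatgcctaaacTAGctgt
RPL13B annotated 3′SS: ttttttatgattaTAGctat
All 4 sites end in TAG.

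By class, 44 of 148 RP events had SEF higher in both fast libraries than in both slow ones and 18 lower, against 17 and 20 of 141 non-RP events. Over all events these shares were 21.1% and 13.1%. The median log2 change was 0.64 for RP events, from 0.45 in u3 to 0.92 in u5, and −0.16 for non-RP events. Median SEF of RP events was 4.63 and 5.17 per 10000 annotated reads in fast, 2.96 and 2.61 in slow, and 2.83 and 2.20 in WT. For non-RP events it was 168 and 116 per 10000 in fast and 152 and 143 in slow, with overlap. RP events have few reads each, and a read count of 0 in only 1 of the 2 libraries occurred in 21 of them in fast and 44 in slow, where depth was lower. Events entered on reads summed over the 6 libraries, so those high in the deeper fast libraries passed more easily. At least 5 reads in both libraries were found in fast only for 60 events, in slow only for 24 and in both mutants for 138. These class counts and medians are thus not independent of the filter.

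**Figure D5:**
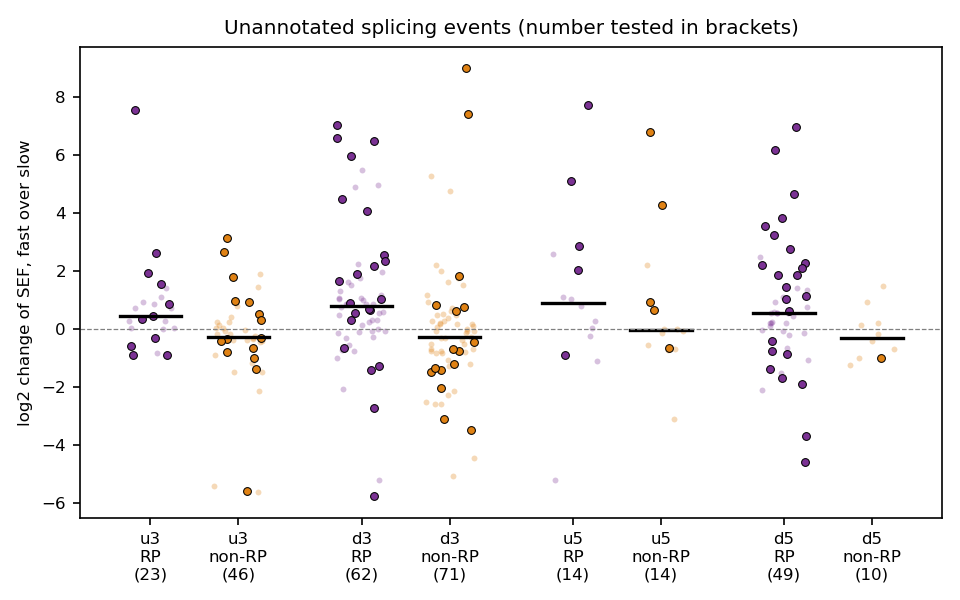
Log2 change of SEF, fast over slow (y axis), of 289 unannotated events by type (u3, d3, u5, d5) for RP (purple) and non-RP (orange) genes (x axis). Each point is an event, outlined where the fast and slow libraries do not overlap, and black lines are medians, which are 0.45 to 0.92 for RP and −0.28 to −0.02 for non-RP types. No point passed the edgeR test, and events could enter through the strain where they were high.

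Exon skipping in genes with 2 introns was rare and uneven between replicates. TAD3, a tRNA adenosine deaminase subunit, had 16 and 22 skipping reads in fast and 0 and 29 in slow. The share in the first fast library was 2.01% (exact 95% interval 1.15 to 3.24%) and in the second slow library 2.89% (1.94 to 4.12%), and in the first slow library, with 0 of 723 reads, the exact interval reached 0.509%. DYN2, a dynein light chain, had 12 and 20 against 10 and 54, and SUS1, of the SAGA and export complexes, 11 and 0 against 13 and 0. In these 3 genes the mutants overlapped. YOS1 had 11 and 0 against none in slow, and EFM5 none in fast against 0 and 13. The intervals cover counting error only.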

How the data were processed

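Strand-specific paired-end libraries of rRNA-depleted total RNA were aligned by the authors to R64 (sacCer3) with STAR (version not given in the sources used here). Per library they deposited raw counts of uniquely and multiply mapped reads per splice junction, and for each gene a raw read count in every DICEseq read class (dice-count). The FPKM values deposited beside these served only for the relative library totals, 1.11 and 1.12 for fast and 1.19 and 1.30 for slow against the first WT library. All 27972 nuclear junctions with a listed motif matched the RefSeq R64 sequence used here.

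Groups came from the sample labels. Pre-mRNA reads were boundary plus intron reads, and mRNA reads were exon–exon junction reads. For the ratio, genes with 10 or more reads of both kinds entered edgeR 4.0.16 (R 4.3.3). Each library gave a pre-mRNA and an mRNA column, and the model held a library effect and the interaction of strain with kind of read. WT libraries entered each fit for the spread, and the contrast was fast against slow. Levels used TMM and the default filter. Events and cryptic introns needed 30 unique reads over the 6 libraries, and cryptic introns were scaled by annotated nuclear junction reads. An event lies within 1000 nt of the annotated site. A leader intron ends within 100 nt before a start codon and spans at most 1000 nt. P-values were adjusted by Benjamini and Hochberg and called under 0.05. Calls of Fisher's exact test had p below 0.01 with false discovery rate below 0.03. Alternatives were DESeq2 1.42.0, other filters, scalings, read classes and left-out libraries.

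Log2 changes are fast over slow, and ± after it is the SE. Named genes were the 10 largest called changes of the ratio in each direction, the 5 largest for levels and cryptic introns, genes named in the study, and up to 4 per list, beside others named for a count they belong to. Members, lists and tests were chosen with earlier results of these data known. The scripts were tested on simulated data. Reads carry no molecular identifiers. In the main fits the p-values rest on the spread between the 2 libraries of each strain, WT included, shared over genes. Those of Fisher's exact test use summed reads and measure no spread between libraries. Python 3.11.15, numpy 2.4.6, pandas 2.3.3, scipy 1.17.1 and matplotlib 3.10.9 were used.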

Additional observations from a re-analysis of the deposited data

How the results depend on the processing

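The count of 29 genes for the ratio, 27 higher and 2 lower in fast, was 49 (43 and 6) with DESeq2, 9 (9 and 0) with the mutant libraries alone, and 16, 10 and 5 with STAR junction reads, with these in the mutant libraries alone and with exon 2 reads. Leaving out 1 library gave 2 to 24 genes, the lowest without slow replicate 1. Log2 changes turned negative for RPS27B (−0.011, −0.011 and −0.048), RPL26A (−0.13, −0.13 and −0.12) and RPL16A (−0.10, −0.10 and −0.31) with STAR reads, the same in the mutants alone and exon 2 reads, and for RPL23A (−0.18) and RPL16B (−0.028) with exon 2 reads. The cause was not tested. Called junction levels, 90 in all, were 37 with scaling by all reads and 46 to 82 without 1 library. Called pre-mRNA levels, 71 in all, were 47 with that scaling and 48 to 72 without 1 library. For events DESeq2 called 2 and Fisher's exact test 142, and every fit without 1 library called 0 (0 to 0). The 19 cryptic introns were 29 with DESeq2, 44 with a minimum of 5 reads in both libraries of a mutant and 8 to 21 without 1 library, lowest without fast replicate 1. RPS26A, RPL29, RPL24A, RPL24B, RPS8A, RPS8B and the main URA2 intron were called in all 13 alternatives. The replicate numbers were not shown to pair the samples, since deviations of same-numbered fast and slow libraries correlated at 0.03 for the ratio, 0.13 for junction reads and −0.18 for pre-mRNA reads. With the replicate block the counts were 33, 102, 83, 0 and 19 for ratio, junction, pre-mRNA, events and cryptic introns, and the crossed pairing gave 73 for pre-mRNA. Depth also limits the events, and in 71 of the 289 tested 1 slow library held no read while the other did.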
